A study of Rattus norvegicus with 9 samples.

Results

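Fibroblast growth factors (FGFs) and their receptors were followed in cultured rat fibroblasts (Fb) from 3 tissues. The genes described are the 10 rows of the deposited tables whose symbol is that of the ligands Fgf1, Fgf2, Fgf5, Fgf7, Fgf9, Fgf10 and Fgf18 or of the receptors Fgfr1, Fgfr2 and Fgfr3, out of 32883 genes in all. All 10 passed the filter on low counts, which left 13273 genes to test. There were 9 RNA libraries, 3 per type, and the types were Fb-Epn (epineurium, the outer connective tissue sheath of the sciatic nerve), Fb-Par (the nerve parenchyma that remains inside it) and Fb-Skn (abdominal skin freed of subcutaneous fat). All cells came from wild-type male Lewis rats aged 10 weeks and were grown in serum-containing medium with a single passage. The nerve tissues came from 2 rats and the skin from 1 other rat, so the 3 libraries of each type do not stand for 3 animals. No source used here says whether they were separate cultures, so the SD and the p-values below measure only the spread between these samples, which may be technical. Nerve and skin fibroblasts differed at once in tissue, rat and body site, and these cannot be told apart.

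FGFs are secreted signalling proteins that bind heparan sulfate at the cell surface and activate receptor tyrosine kinases. An activated receptor signals through adaptor proteins to the RAS and MAP kinase cascade, which in turn induces its own inhibitors, such as sprouty proteins and MAP kinase phosphatases. Connective tissue cells are a known source of Fgf7 and Fgf10, ligands that act mainly on the epithelial splice form of Fgfr2, while mesenchymal cells themselves carry mostly Fgfr1. Counts per gene do not separate the splice forms of a receptor.

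Library totals ranged from 10084584 to 12310506 counts. Levels are given as TPM (transcript abundance scaled by transcript length and library size) from the authors' table. Differences between types are edgeR log2 fold changes with their SE, fitted on the counts of all 9 libraries after TMM scaling, and the adjusted p is that of edgeR's quasi-likelihood test after Benjamini-Hochberg adjustment over all tested genes. A gene was called at an adjusted p under 0.01 and was a DE gene if its log2 fold change was also above 2 or below -2. With 3 samples against 3, the smallest p of an exact permutation test (two-sided) is 0.10, so no such test of a single gene is given.

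The labelled cell type was checked against marker genes. In the authors' immunolabelling of protein, all cells of each type carried collagen and Thy1. Labelling for Schwann cells and endothelial cells was negligible there, whereas the values below are RNA. The 7 fibroblast markers found in the table (Col1a1, Col3a1, Thy1, Pdgfra, Dcn, Lum and Vim) were measured in every type, the lowest mean being that of Pdgfra in Fb-Skn at 80.5 TPM. RNA of other cell types was also measured. The summed TPM of 9 Schwann cell markers ran from 193 to 204 for Fb-Epn, from 270 to 276 for Fb-Par and from 11.9 to 14.2 for Fb-Skn, where Sox10, Erbb3 and Cdh19 were among the genes at 0. In the same order of types, the sum over 7 macrophage markers was 282 to 296, 82.7 to 86.6 and 17.1 to 19.7, and that over 5 pericyte markers was 18.1 to 23.6, 158 to 167 and 26.0 to 29.0. Endothelial markers, of which 6 were in the table, summed to at most 15.7, 11.8 and 1.6 in the same order, with Cdh5 and Emcn at 0 in Fb-Skn. The 8 keratinocyte markers summed to at most 4.80 in any library, with Krt15 at 0 throughout. Perineurial markers (5 genes, most of the sum being the glucose transporter Slc2a1) summed to 156 to 163, 41.7 to 46.8 and 75.4 to 84.1, and 4 adipocyte markers to under 1 in every library. In such bulk samples, fewer cells of a type and less RNA per cell cannot be told apart.

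Fgf7 (keratinocyte growth factor), Fgf10, Fgf5 and the pair Fgfr2 and Fgfr3 had the largest edgeR log2 fold changes between types. Fgf7 was the leading ligand of Fb-Epn, Fgf5 was abundant in Fb-Par and had no count in Fb-Skn, and Fgf10 was highest in Fb-Skn. Fgfr1 was the main receptor of all 3 types, whereas Fgfr2 was highest in Fb-Skn and Fgfr3 in Fb-Epn. By mean TPM, 5 of the 10 genes were highest in Fb-Epn (Fgf1, Fgf7, Fgf9, Fgf18 and Fgfr3), 3 in Fb-Par (Fgf2, Fgf5 and Fgfr1) and 2 in Fb-Skn (Fgf10 and Fgfr2).

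**Figure D1:**
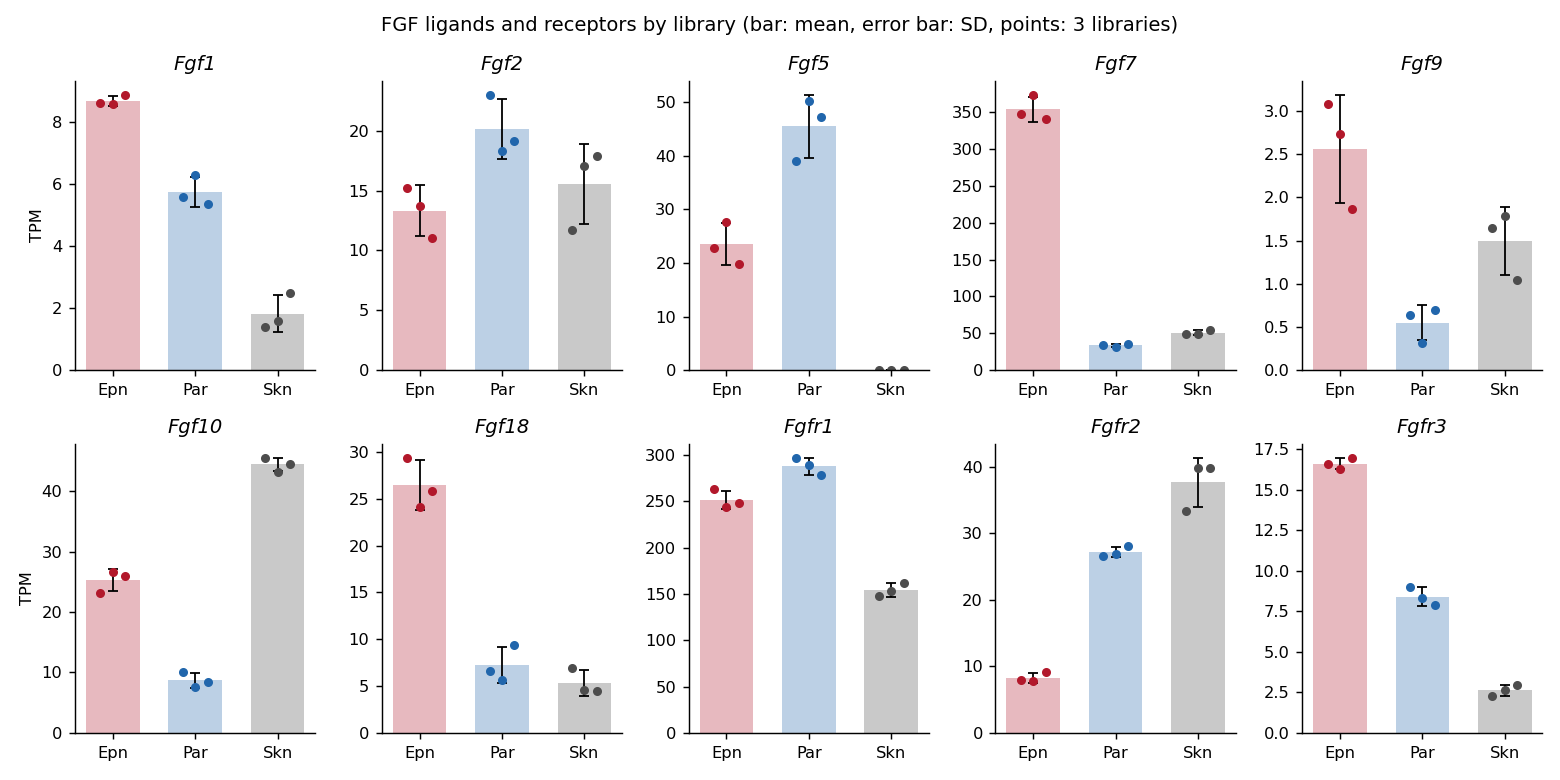
TPM of each of the 10 genes (vertical axis, from 0, a separate scale for each gene) in the 3 types, with a bar for the mean, an error bar for the SD and a point for each of the 3 libraries. Fgf7 stands at 340 to 373 TPM in Fb-Epn and at most 54.4 TPM elsewhere, and Fgf5 is at 0 in all 3 Fb-Skn libraries.

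The promoters of Fgf5, Fgf7 and Fgf10 are shown because these 3 ligands had the largest edgeR log2 fold changes. They run from 250 bases before to 50 bases after the start of the gene in RefSeq, on build GRCr8. Which start was used in these cultures was not measured. Capitals mark matches, on either strand, to TATAAA (the TATA box), CCAAT (the CCAAT box), GGGCGG (the GC box) and TGANTCA (the AP-1 site, no match here), and the matches do not overlap each other.
Fgf5 (chr14:11650194-11650493, minus strand): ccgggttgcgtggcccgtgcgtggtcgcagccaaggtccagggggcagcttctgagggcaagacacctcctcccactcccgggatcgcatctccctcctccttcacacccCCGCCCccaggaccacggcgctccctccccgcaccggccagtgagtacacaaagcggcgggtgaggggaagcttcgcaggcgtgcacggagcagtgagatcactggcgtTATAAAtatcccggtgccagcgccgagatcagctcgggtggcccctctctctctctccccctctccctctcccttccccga
Fgf7 (chr3:133735377-133735676, plus strand): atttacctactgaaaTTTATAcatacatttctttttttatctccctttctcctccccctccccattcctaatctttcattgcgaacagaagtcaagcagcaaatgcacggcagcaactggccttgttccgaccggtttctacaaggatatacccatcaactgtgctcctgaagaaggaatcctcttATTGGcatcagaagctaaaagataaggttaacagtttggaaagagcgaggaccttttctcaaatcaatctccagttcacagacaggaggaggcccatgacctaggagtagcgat
Fgf10 (chr2:52533689-52533988, plus strand): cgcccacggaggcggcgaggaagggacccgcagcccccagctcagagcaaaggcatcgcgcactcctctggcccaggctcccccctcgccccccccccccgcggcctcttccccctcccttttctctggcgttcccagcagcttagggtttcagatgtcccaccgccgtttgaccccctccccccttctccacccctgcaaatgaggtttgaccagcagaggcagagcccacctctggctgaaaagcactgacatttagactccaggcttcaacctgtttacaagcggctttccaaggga
The Fgf5 window held TATAAA beginning 31 bases before the start and a GC box on the other strand. The Fgf7 window held the CCAAT box on the other strand, beginning 64 bases before the start, and a TATAAA on the other strand 235 bases before it. None of the 4 motifs was found in the Fgf10 window. Among all 33469 rat promoters of this length, 14.2% held TATAAA, 37.5% CCAAT, 33.1% GGGCGG and 7.33% TGANTCA, at any position and on either strand. How many held TATAAA at the place seen in Fgf5 was not counted. Fgf5 and Fgf10 had GC-rich windows (67.3% and 64.0% G or C, against a median of 51.7% over all promoters), and the Fgf7 window was at 43.7%.

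Fgf7 (ENSRNOG00000009425, rn6 chr3:118317761-118366872) lies wholly within Fam227b on the opposite strand. Fam227b had 10 to 23 counts per library, against 104 to 1469 for Fgf7. The strand setting of the counting is not given in the sources used here, so an effect of the overlap on these counts cannot be told. Fgf7 measured 347, 373 and 340 TPM in the Fb-Epn libraries, 34.5, 31.6 and 35.0 TPM in Fb-Par and 49.5, 49.1 and 54.4 TPM in Fb-Skn. The 3 types did not overlap, and Fb-Epn stood far above both others. In Fb-Epn the mean level of 354 ± 17.4 TPM (SD, n = 3) was above that of 96.9% of tested genes. The difference was 10.6-fold between Fb-Epn and Fb-Par (log2 fold change 3.40, SE 0.072, adjusted p = 2.21e-14) and 6.29-fold between Fb-Epn and Fb-Skn (2.65, SE 0.068, adjusted p = 1.73e-13), and Fgf7 was a DE gene in both comparisons. Fb-Par was lower than Fb-Skn by a smaller step (log2 fold change -0.75, SE 0.084, adjusted p = 2.66e-06). The summed macrophage markers and the perineurial sum, which was mostly Slc2a1, were also highest in Fb-Epn. The perineurial gene Cldn1 was instead highest in Fb-Par, on at most 7 counts in any library. What these markers contribute to the Fgf7 difference was not tested.

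Fgf10 (ENSRNOG00000012278, rn6 chr2:51672722-51750369), a ligand of the same subfamily as Fgf7, had another order. Its levels were 45.6, 43.3 and 44.5 TPM in Fb-Skn, 23.2, 26.7 and 26.0 TPM in Fb-Epn, and 10.1, 7.55 and 8.45 TPM in Fb-Par. Fb-Skn was highest and Fb-Par lowest, with no overlap between any pair of types. Compared with Fb-Skn, Fgf10 was 5.64-fold lower in Fb-Par (log2 fold change -2.50, SE 0.090, adjusted p = 7.76e-12), a DE gene. Fb-Epn lay between them, below Fb-Skn (-0.95, SE 0.080, adjusted p = 1.32e-07) and above Fb-Par (1.54, SE 0.092, adjusted p = 3.17e-09). Both Fgf7 and Fgf10 were therefore lowest in Fb-Par, while their ranking between Fb-Epn and Fb-Skn was opposite. The ratio of Fgf7 to Fgf10 in TPM was 14.0 ± 0.943 for Fb-Epn, 3.91 ± 0.434 for Fb-Par and 1.15 ± 0.0695 for Fb-Skn (SD, n = 3 each). The authors' FPKM table gave ratios of 18.8, 5.25 and 1.61, in the same order.

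Fgf5 (ENSRNOG00000022631, rn6 chr14:12974921-12995584, minus strand), a ligand known for ending the growth phase of hair, was measured in the nerve-derived types. It had 171, 191 and 189 counts in Fb-Par (38.9, 50.3 and 47.3 TPM) and 92, 126 and 81 counts in Fb-Epn (22.9, 27.7 and 19.9 TPM). In Fb-Skn it had 0 counts in all 3 libraries. A count of 0 allows up to 3 counts, or 0.687 to 0.787 TPM per Fb-Skn library, so relative to Fb-Skn, Fgf5 was at least 28.4-fold higher in Fb-Epn and at least 54.6-fold higher in Fb-Par, a bound that covers counting error only. It was called in both comparisons (adjusted p = 5.83e-09 and 7.33e-10). Within the nerve it was 1.92-fold lower in Fb-Epn than in the parenchymal cells (log2 fold change -0.94, SE 0.165, adjusted p = 4.43e-04). Schwann cell markers had the same order of types and Sox10, Erbb3 and Cdh19 were likewise at 0 in Fb-Skn. Their part in the Fgf5 difference was not tested.

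Fgf1 and Fgf2, ligands that lack a classical secretion signal, showed unlike patterns. Fgf1 (ENSRNOG00000013867, rn6 chr18:32273770-32359824), which binds all the FGF receptors, was at 8.64, 8.59 and 8.89 TPM in Fb-Epn, 5.60, 6.29 and 5.35 TPM in Fb-Par and 1.39, 1.59 and 2.51 TPM in Fb-Skn. The level fell in that order without overlap, on 34 to 219 counts per library. Against Fb-Skn, Fgf1 was 4.34-fold higher in Fb-Epn (log2 fold change 2.12, SE 0.171, adjusted p = 8.63e-08), a DE gene. Its log2 fold change was 1.96 without Fb-Skn replicate 1, which is under the limit for DE genes although the call at adjusted p stood. Fb-Par was also higher than Fb-Skn (1.51, SE 0.176, adjusted p = 4.02e-06). Between Fb-Epn and Fb-Par the log2 fold change was 0.61 (SE 0.151, adjusted p = 0.00369), a call that was lost without Fb-Epn replicate 1 (adjusted p = 0.0126), Fb-Epn replicate 2 (0.0107), Fb-Epn replicate 3 (0.0139), Fb-Par replicate 1 (0.0143) or Fb-Par replicate 3 (0.0167). Macrophage and endothelial markers had the same order of types as Fgf1, and their part was not tested.

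Fgf2 (ENSRNOG00000017392, rn6 chr2:124081072-124134681), a general mitogen of fibroblasts, varied least among the ligands. It measured 15.2, 13.7 and 11.0 TPM in Fb-Epn, 23.0, 18.3 and 19.1 TPM in Fb-Par and 11.7, 17.1 and 17.9 TPM in Fb-Skn. Fb-Par had the highest values, and Fb-Epn and Fb-Skn overlapped. None of its 3 comparisons was called, with log2 fold changes of -0.36 (SE 0.177, adjusted p = 0.104) for Fb-Epn against Fb-Skn, -0.59 (SE 0.174, adjusted p = 0.0117) for Fb-Epn against Fb-Par and 0.23 (SE 0.172, adjusted p = 0.275) for Fb-Par against Fb-Skn. The value between the nerve types lay near the threshold and was called without Fb-Skn replicate 1 (adjusted p = 0.00602) and with DESeq2 (adjusted p = 0.00724). Fgf2 shares 375 bases at its end with Nudt6 on the opposite strand, which had 66 to 101 counts per library. Whether the counting used strand is not given in the sources used here, so a part of these reads may belong to the partner gene.

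Fgf18 and Fgf9 are ligands known mainly from the development of cartilage, bone, lung and gonad. Fgf18 (ENSRNOG00000048389, rn6 chr10:18047109-18063391) was at 29.4, 24.1 and 25.9 TPM in Fb-Epn, 6.57, 5.70 and 9.39 TPM in Fb-Par and 6.94, 4.54 and 4.51 TPM in Fb-Skn. Fb-Epn stood above both others, which overlapped. Fgf18 was a DE gene against Fb-Skn (log2 fold change 2.15, SE 0.260, adjusted p = 6.38e-06) and was called against Fb-Par (1.88, SE 0.249, adjusted p = 1.87e-05), where it passed the limit for DE genes without Fb-Par replicate 3 (2.11). Fb-Par and Fb-Skn differed by 0.27 on the log2 scale (SE 0.291, adjusted p = 0.452). The counts were low, with 73 to 82 in Fb-Epn and 12 to 26 in the other types. Macrophage markers and the perineurial sum, which was mostly Slc2a1, were highest in Fb-Epn too. The perineurial gene Cldn1 was instead highest in Fb-Par, on at most 7 counts in any library. What these markers contribute was not tested.

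Fgf9 (ENSRNOG00000011471, rn6 chr15:38341089-38387316) was the least abundant ligand of the group that has counts in every library. It had 31, 31 and 19 counts in Fb-Epn (3.09, 2.73 and 1.87 TPM), 7, 3 and 7 counts in Fb-Par (0.638, 0.316 and 0.701 TPM) and 18, 17 and 10 counts in Fb-Skn (1.65, 1.79 and 1.04 TPM). The 3 types did not overlap, though the margin between Fb-Epn and Fb-Skn was small. Fgf9 was a DE gene between Fb-Epn and Fb-Par (log2 fold change 2.19, SE 0.394, adjusted p = 3.16e-04), with a value of 1.93 without Fb-Par replicate 2. It was called between Fb-Par and Fb-Skn (-1.56, SE 0.420, adjusted p = 0.00567), a call that was lost without Fb-Par replicate 1 (adjusted p = 0.0135), Fb-Par replicate 2 (0.0251), Fb-Skn replicate 1 (0.0212) or Fb-Skn replicate 2 (0.0227). Between Fb-Epn and Fb-Skn it was not called (0.63, SE 0.340, adjusted p = 0.132). At these counts the size of the Fgf9 differences is known only roughly. The perineurial sum, which was mostly Slc2a1, had the same order of types as Fgf9, whereas the perineurial gene Cldn1 did not. Macrophage markers were also highest in Fb-Epn. The part of these markers was not tested.

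Among the receptors, Fgfr1 (ENSRNOG00000016050, rn6 chr16:71266248-71319449, minus strand) was far the most abundant. It measured 263, 243 and 248 TPM in Fb-Epn, 297, 289 and 278 TPM in Fb-Par and 147, 153 and 162 TPM in Fb-Skn, on 2468 to 5513 counts per library. Both nerve-derived types were higher than Fb-Skn, by 1.48-fold in Fb-Epn (log2 fold change 0.57, SE 0.039, adjusted p = 1.51e-08) and 1.69-fold in Fb-Par (0.75, SE 0.039, adjusted p = 5.17e-10). Fb-Epn was slightly lower than Fb-Par (-0.19, SE 0.038, adjusted p = 9.78e-04). In every type Fgfr1 stood above at least 92.0% of tested genes. Schwann cell markers had the same order of types as Fgfr1, and their part was not tested.

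Fgfr2 (ENSRNOG00000016374, rn6 chr1:200590953-200696928, minus strand), whose epithelial form is the receptor of Fgf7 and Fgf10, rose from Fb-Epn to Fb-Skn. Its levels were 7.88, 7.83 and 9.20 TPM in Fb-Epn, 26.6, 26.9 and 28.1 TPM in Fb-Par and 33.4, 39.8 and 39.9 TPM in Fb-Skn. The types did not overlap. Fgfr2 was 4.99-fold lower in Fb-Epn than in the skin cells (log2 fold change -2.32, SE 0.079, adjusted p = 4.44e-12), a DE gene, and 3.25-fold lower than in Fb-Par (-1.70, SE 0.080, adjusted p = 2.12e-10). Fb-Par was lower than Fb-Skn by 0.62 on the log2 scale (-0.62, SE 0.070, adjusted p = 3.26e-06). Macrophage and endothelial markers ran in the reverse order of Fgfr2, from Fb-Epn down to Fb-Skn, and their part was not tested.

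Fgfr3 (ENSRNOG00000016818, rn6 chr14:82273070-82287706, minus strand), a receptor best known as a brake on bone growth, went the opposite way. It was at 16.6, 16.3 and 17.0 TPM in Fb-Epn, 9.01, 8.30 and 7.89 TPM in Fb-Par and 2.25, 2.64 and 2.97 TPM in Fb-Skn. The order was the reverse of that of Fgfr2, again without overlap. Fgfr3 was 5.76-fold higher in Fb-Epn than in the skin cells (log2 fold change 2.53, SE 0.117, adjusted p = 1.49e-10), a DE gene, 1.99-fold higher than in Fb-Par (0.99, SE 0.101, adjusted p = 1.20e-06), and Fb-Par exceeded Fb-Skn 2.90-fold (1.53, SE 0.121, adjusted p = 6.11e-08). The ratio of Fgfr2 to Fgfr3 in TPM was accordingly 0.499 ± 0.0366 for Fb-Epn, 3.25 ± 0.308 for Fb-Par and 14.4 ± 0.874 for Fb-Skn (SD, n = 3 each). Macrophage and endothelial markers had the same order of types as Fgfr3, and their part was not tested.

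Over the whole group, 8 of the 10 genes were called between Fb-Epn and Fb-Skn, where 43.9% of all tested genes were called. Of these, 6 were higher in Fb-Epn (23% of all tested genes) and 2 were lower (20.9%). There were 6 DE genes against 8.44% of all tested genes, 5 of them higher in Fb-Epn (Fgf1, Fgf5, Fgf7, Fgf18 and Fgfr3, background 6.22%) and 1 lower (Fgfr2, background 2.22%). Between Fb-Epn and Fb-Par, 9 of 10 were called (38.8% of all tested genes), 6 higher in Fb-Epn (20.2%) and 3 lower (18.6%), and 2 were DE genes (6.48%), Fgf7 and Fgf9, both higher in Fb-Epn (4.09%), with 0 lower (2.39%). Between Fb-Par and Fb-Skn, 8 of 10 were called (45.6%), 4 higher in Fb-Par (23.2%) and 4 lower (22.4%), and 2 were DE genes (8.54%), Fgf5 higher (5.86%) and Fgf10 lower (2.67%). The TPM of the libraries did not overlap for 9, 10 and 9 of the genes in the 3 comparisons, and the share of all tested genes without overlap was 61.4%, 57.3% and 61.7%. In all 3 comparisons 7 of the 10 genes were called (16.5% of all tested genes), and 8 were DE genes in at least 1 (13.9%), the exceptions being Fgf2 and Fgfr1. The median size of the log2 fold change was 2.13, 1.27 and 1.13 in the group, also with Fgf5 at its bound, and 0.33, 0.28 and 0.34 over all tested genes. The comparisons share libraries, so they are not independent of each other. The 10 genes were chosen with earlier results of these data known, and they leave out Fgf22 and the ligands without counts. The values over all tested genes therefore give a scale only. They do not show that the FGF family differs more than other genes.

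**Figure D2:**
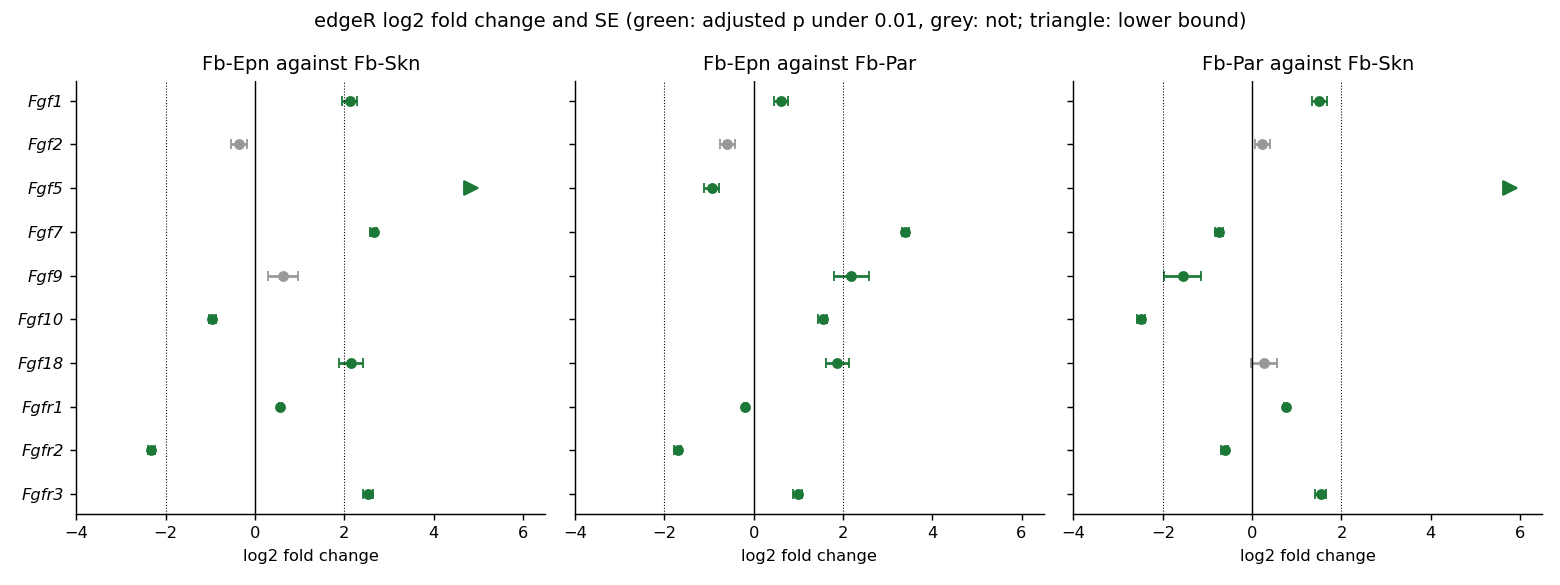
edgeR log2 fold change (horizontal axis) of the 10 genes in Fb-Epn against Fb-Skn, Fb-Epn against Fb-Par and Fb-Par against Fb-Skn, with bars for the SE. Green points were called at an adjusted p under 0.01, grey points were not, triangles for Fgf5 give the lower bound against 3 counts, and dotted lines mark log2 fold changes of -2 and 2. Fgf7 lies at 2.65 and 3.40 in the comparisons of Fb-Epn, Fgf10 at -2.50 in Fb-Par against Fb-Skn, and the 3 values of Fgf2 are grey.

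As shares of the summed TPM of all FGF ligands in the table (these 7 and 11 others), the make-up of the ligands differed between the types. The sum was 467 ± 18.7 TPM in Fb-Epn, 137 ± 1.04 TPM in Fb-Par and 130 ± 4.59 TPM in Fb-Skn (SD, n = 3 each). Fgf7 made up 74.9% to 76.7% of it in the Fb-Epn libraries, 23.1% to 25.3% in Fb-Par and 38.3% to 40.3% in Fb-Skn. In Fb-Par, Fgf5 took 28.6% to 36.7%, more than Fgf7 in every library, but by FPKM the mean shares were 33.7% for Fgf5 and 31.2% for Fgf7 and Fgf7 was ahead in Fb-Par replicate 1 (31.8% against 30.1%). Fgf5 made up 4.43% to 5.70% in Fb-Epn. Fgf10 took 32.9% to 35.2% in Fb-Skn, against 5.0% to 5.79% in Fb-Epn and 5.51% to 7.42% in Fb-Par. Fb-Skn was thus split mainly between Fgf7 and Fgf10, and Fb-Par mainly between Fgf5, Fgf7 and Fgf2, with Fgf2 at 13.3% to 16.9%. The shares depended on the unit. By FPKM the mean share of Fgf7 was 81.6% in Fb-Epn and 49.1% in Fb-Skn. Fgf22 held a mean of 9.33% in Fb-Par by TPM but 0.725% by FPKM. Of the summed TPM of Fgfr1 to Fgfr4, Fgfr1 made up 91.0% ± 0.522 for Fb-Epn, 88.9% ± 0.38 for Fb-Par and 79.3% ± 1.14 for Fb-Skn. Fgfr2 took 3.01% ± 0.314, 8.41% ± 0.483 and 19.3% ± 1.07 in the same order, and Fgfr3 6.02% ± 0.224, 2.59% ± 0.107 and 1.34% ± 0.11. These shares are descriptions with no test.

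**Figure D3:**
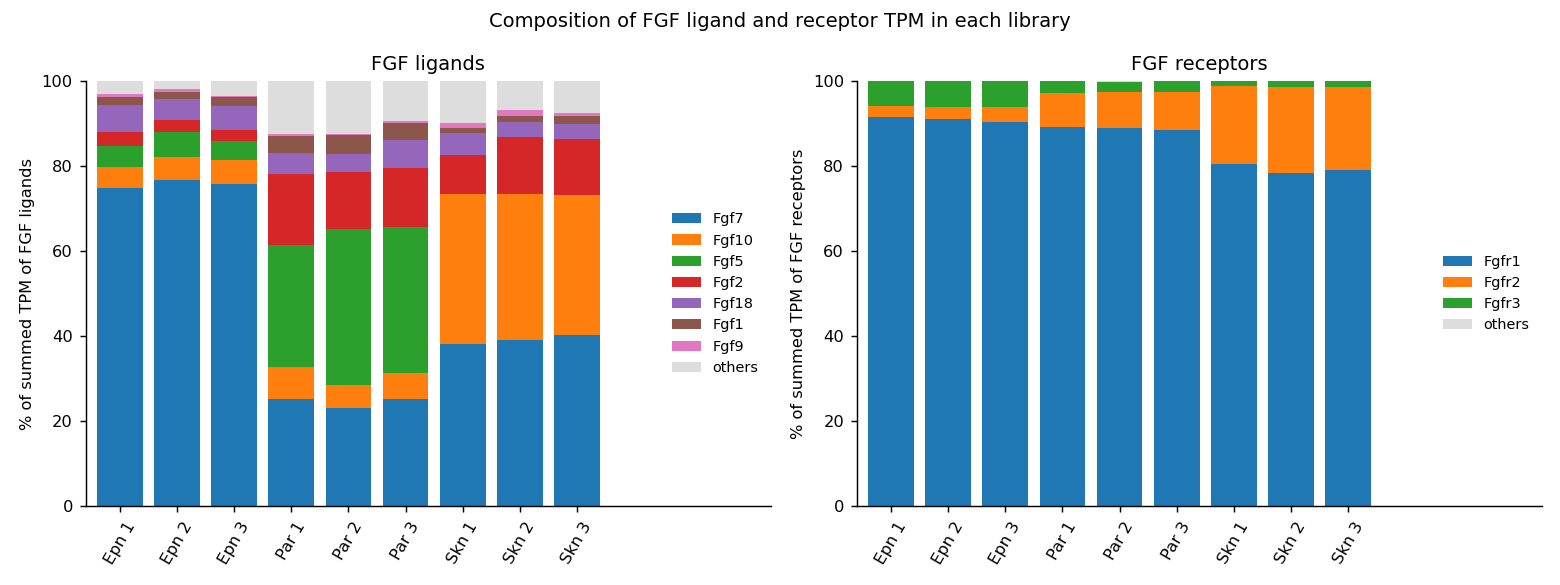
Share of each gene (vertical axis, % of the summed TPM) among the FGF ligands, left, and among the receptors Fgfr1 to Fgfr4, right, in each of the 9 libraries. Fgf7 fills 74.9% to 76.7% of the Fb-Epn bars, Fgf5 is seen only in the nerve-derived libraries, Fgf10 fills 32.9% to 35.2% of the Fb-Skn bars, and Fgfr1 fills most of every receptor bar.

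The other ligands of the family were mostly silent or near it. Of the 11 others in the table, Fgf3, Fgf4, Fgf6, Fgf8, Fgf17 and Fgf20 had 0 counts in every library, and Fgf19, Fgf21 and Fgf23 had at most 2 counts in any library. Only Fgf16 and Fgf22 passed the filter. Fgf16, of the same subfamily as Fgf9, had 18 to 34 counts in Fb-Par, 2 in each Fb-Epn library and 1 to 5 in Fb-Skn. It was a DE gene in Fb-Par against both others, with log2 fold changes of -3.51 for Fb-Epn against Fb-Par (SE 0.512, adjusted p = 4.65e-05) and 2.61 for Fb-Par against Fb-Skn (SE 0.471, adjusted p = 2.72e-04). Between Fb-Epn and Fb-Skn, Fgf16 was not called (adjusted p = 0.292). Fgf16 passed the filter only through its counts in Fb-Par, the type where it was high. Its calls are therefore a description, and the size of its differences is known only roughly. The summed pericyte markers were also highest in Fb-Par, and their part was not tested. Single pericyte markers differed in order between Fb-Epn and Fb-Skn. Cspg4 was lower in Fb-Epn (8.48 against 26.4 TPM), whereas Abcc9 was higher (1.26 against 0.018 TPM), and Rgs5 and Kcnj8 were at 0 in Fb-Skn. Fgf22 had 19 to 37 counts per library and was called in none of the comparisons. Its level per length was not settled, with means of 12.7, 12.8 and 9.60 TPM in the types in the same order as above but 0.820, 0.465 and 0.938 in the FPKM table. Fgf12, an intracellular FGF-like protein that binds sodium channels, was a DE gene with a lower level in Fb-Epn than in the skin cells (-2.34, SE 0.544, adjusted p = 0.00217) on 2 to 22 counts. Fgfr4 had at most 6 counts in any library and the co-receptor Kl had none, and Klb was not analysed here. Fgfrl1, a receptor that lacks the kinase domain, was higher in Fb-Epn (27.0 ± 0.417 TPM) than in Fb-Par (12.3 ± 1.74 TPM, log2 fold change 1.15, SE 0.091, adjusted p = 7.25e-08) and Fb-Skn (9.10 ± 0.516 TPM, 1.43, SE 0.094, adjusted p = 8.36e-09).

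Of 72 further genes of the FGF pathway that were listed, 70 were found by symbol and 54 were tested. Called were 32 between Fb-Epn and Fb-Skn (21 higher and 11 lower in Fb-Epn), 34 between Fb-Epn and Fb-Par (16 and 18) and 35 between Fb-Par and Fb-Skn (23 higher and 12 lower in Fb-Par). The shares called over all tested genes were 43.9% (23% higher and 20.9% lower), 38.8% (20.2% and 18.6%) and 45.6% (23.2% and 22.4%). DE genes numbered 2, 4 and 2 of the 54, where 8.44%, 6.48% and 8.54% of all tested genes were DE genes. The median size of their log2 fold change was 0.42, 0.36 and 0.44, beside 0.33, 0.28 and 0.34 over all tested genes. No test set these genes apart from the rest. Summed macrophage and endothelial markers fell from Fb-Epn over Fb-Par to Fb-Skn, while Schwann cell and pericyte markers were highest in Fb-Par, and their part in the pathway differences below was not tested.

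Among 12 tested genes that shape heparan sulfate or hold FGFs outside the cell, 9, 7 and 8 were called in the 3 comparisons (43.9%, 38.8% and 45.6% of all tested genes). Sulf1 and Sulf2 are extracellular enzymes that remove sulfate from heparan sulfate, and both were higher in the nerve-derived types than in Fb-Skn. Sulf1 was at 335 ± 6.93 TPM in Fb-Epn, 285 ± 4.95 TPM in Fb-Par and 101 ± 1.95 TPM in Fb-Skn (log2 fold change 1.59, SE 0.029, adjusted p = 4.63e-15 for Fb-Epn against Fb-Skn). Sulf2 was highest in Fb-Par (108 ± 3.09 TPM, against 75.1 ± 1.03 in Fb-Epn and 57.6 ± 2.11 in Fb-Skn), as was Ext1, part of the enzyme that builds the heparan sulfate chain (248 ± 7.42, against 171 ± 5.40 and 139 ± 7.70). Hs6st1 and Hs6st2 add the sulfate groups that Sulf1 and Sulf2 remove. Hs6st1 was higher in Fb-Epn (230 ± 6.06 TPM) than in Fb-Skn (120 ± 3.20 TPM, 0.80, SE 0.039, adjusted p = 2.84e-10), and Hs6st2 was a DE gene between Fb-Epn (14.9 ± 2.35 TPM) and Fb-Par (3.60 ± 0.421 TPM, 2.05, SE 0.172, adjusted p = 1.38e-07).

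Among 23 tested transducers inside the cell, 12, 14 and 16 were called (43.9%, 38.8% and 45.6% of all tested genes) and none was a DE gene. Shc1, an adaptor of receptor tyrosine kinases, was highest in Fb-Epn (183 ± 4.26 TPM, against 135 ± 5.55 TPM for Fb-Par and 108 ± 4.76 TPM for Fb-Skn). The transcription factor Stat3 was likewise highest in Fb-Epn, at 170 ± 1.93 TPM against 125 ± 1.42 and 109 ± 2.79. Ptpn11, a phosphatase that passes receptor signals on to RAS, was highest in Fb-Par (144 ± 2.81 TPM, against 90.3 ± 1.45 in Fb-Epn and 117 ± 4.84 in Fb-Skn), and so was Cbl, which marks receptors for breakdown (21.1 ± 1.09, against 16.8 ± 1.40 and 9.95 ± 0.552). The MAP kinase Mapk3 was lower in Fb-Epn (132 ± 3.37 TPM) than in Fb-Skn (169 ± 4.12 TPM, log2 fold change -0.49, SE 0.040, adjusted p = 1.03e-07).

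Feedback inhibitors and target genes of FGF signalling, which other growth factors also induce, were called in 9 (7 higher and 2 lower in Fb-Epn), 11 (7 higher and 4 lower in Fb-Epn) and 10 (6 higher and 4 lower in Fb-Par) of 14 tested. Over all tested genes 43.9% (23% higher and 20.9% lower), 38.8% (20.2% and 18.6%) and 45.6% (23.2% and 22.4%) were called in the same comparisons. The MAP kinase phosphatase Dusp6 was at 44.2 ± 0.888 TPM in Fb-Epn, 35.2 ± 2.28 TPM in Fb-Par and 11.0 ± 0.262 TPM in Fb-Skn, and the sprouty gene Spry2 at 42.2 ± 1.32, 33.7 ± 2.71 and 15.2 ± 1.43 TPM. Both were called in all 3 comparisons, in the order Fb-Epn, Fb-Par, Fb-Skn, with log2 fold changes between Fb-Epn and Fb-Skn of 1.87 (SE 0.073, adjusted p = 1.98e-11) for Dusp6 and 1.33 (SE 0.093, adjusted p = 1.67e-08) for Spry2. Macrophage and endothelial markers had the same order of types as both genes, and their part was not tested. The phosphatases Dusp4 and Dusp5 were high in Fb-Epn alone. Dusp4 measured 16.4 ± 0.652 TPM there and was a DE gene against Fb-Par (3.77 ± 1.29 TPM, 2.13, SE 0.170, adjusted p = 8.07e-08), and Dusp5 measured 11.7 ± 1.48 TPM and was a DE gene against Fb-Skn (2.33 ± 0.390 TPM, 2.17, SE 0.196, adjusted p = 2.85e-07). Members of the same list also went other ways. Etv1, an ETS transcription factor, was a DE gene in Fb-Par (11.2 ± 0.681 TPM) against both Fb-Epn (1.48 ± 0.257 TPM, -2.91, SE 0.152, adjusted p = 6.82e-10) and Fb-Skn (1.79 ± 0.379 TPM, 2.48, SE 0.149, adjusted p = 2.71e-09).

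**Figure D4:**
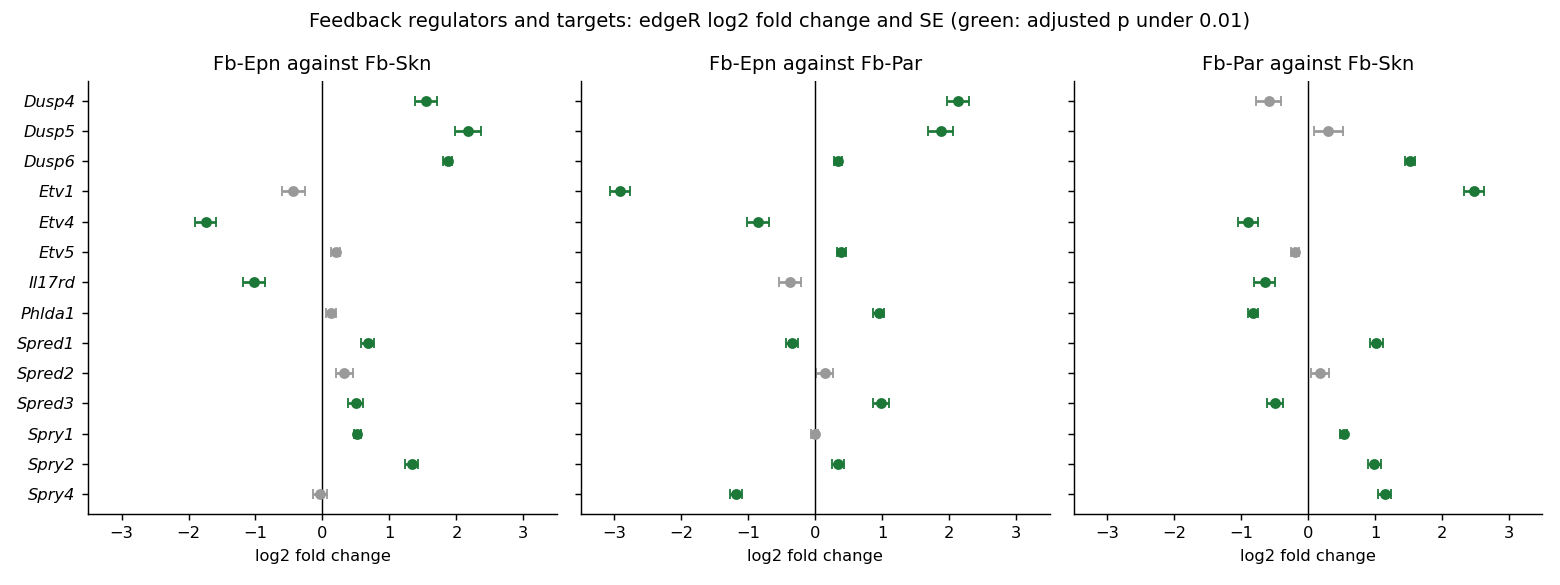
edgeR log2 fold change (horizontal axis) with SE of the 14 tested feedback inhibitors and target genes in the 3 comparisons, green where called at an adjusted p under 0.01 and grey where not. Dusp6 and Spry2 lie above 0 in all 3 panels, and Etv1 lies at -2.91 in Fb-Epn against Fb-Par and at 2.48 in Fb-Par against Fb-Skn.

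For each of the 8 genes that were DE genes in at least 1 comparison, the tested genes with the most similar pattern were sought by the root mean square difference of the centred log2 CPM (counts scaled to library size) over the 9 libraries, where 0 is an identical pattern. The closest were those of the receptors. Fgfr3 was followed by Rassf4 (difference 0.095) and Errfi1 (0.10), and Fgfr2 by Hes1 (0.101) and Arhgef26 (0.142). Hes1, a target gene of Notch signalling, measured 27.4 ± 3.43 TPM in Fb-Epn, 82.2 ± 1.70 TPM in Fb-Par and 122 ± 4.57 TPM in Fb-Skn. Errfi1, an inhibitor of the epidermal growth factor receptor, measured 72.1 ± 2.52, 33.1 ± 0.559 and 10.3 ± 0.843 TPM. Among the ligands, Fgf10 was nearest to Sertad4 (0.129) and the integrin gene Itga8 (0.166), Fgf1 to Tbc1d9 (0.151) and Steap3 (0.156), Fgf18 to Gpat3 (0.192) and Arid5a (0.237), and Fgf7 to Pde2a (0.216) and Emb (0.217). Fgf5 was nearest to Chl1 (0.222), a neural cell adhesion gene at 6.47 ± 0.574 TPM in Fb-Epn, 13.5 ± 1.14 TPM in Fb-Par and 0 TPM in Fb-Skn. Fgf9 was nearest to Tmem106a (0.268) and Emilin1 (0.291). These likenesses are descriptions over 9 libraries of 3 types.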

How the data were processed

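RNA was measured in 9 libraries, 3 per type, grouped by the sample labels. The authors prepared poly(A) directional libraries, sequenced paired ends, trimmed the reads and aligned them to rn6. The submitters' processing notes list FastQC 0.11.7, Trimmomatic 0.38, HISAT2 2.1.0 and featureCounts 1.6.3, whereas the annotation release and the strand setting are not given in the sources used here. The authors deposited raw counts per gene, TPM made from these counts, and FPKM, which are not a rescaling of the counts and served only as an alternative.

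Differential expression was tested on the counts with edgeR 4.0.16 in R 4.3.3 (TMM, default expression filter, quasi-likelihood F test) in 1 model of all 9 libraries, with no pairing of samples. TMM factors ranged from 0.955 to 1.03 and the common coefficient of variation was 8.25%. TPM do not include the TMM factors. The count behind each value limits its precision, and bounds against 3 counts cover counting error only. In simulated data for Fb-Epn against Fb-Skn with 13034 genes, 200 of 200 genes changed 4-fold were recovered with 1 false call. The changed genes were drawn only from those with higher mean counts, and all genes were given the same spread. Recovery at counts as low as those of Fgf9 or Fgf18 was therefore not tried. Alternatives used DESeq2 1.42.0, limma 3.58.1 and other scalings, filters and thresholds. Tables, promoter searches and figures used matplotlib 3.10.9, numpy 2.4.6 and pandas 2.3.3 in Python 3.11.15. No library pair of a type was within sampling noise of each other.

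The genes described and the gene lists were chosen with earlier results of these data known. Named beyond the 10 genes are DE genes of the pathway lists, the 2 called genes of each list with the smallest adjusted p in each comparison, genes at 0 or low counts, and the 2 nearest patterns. Some genes that these rules or the marker lists hold are counted in totals but not reported here by themselves. The co-culture, imaging and animal experiments were not analysed here. Promoter sequences are from RefSeq on GRCr8, where 9 of the 10 genes were matched.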

Additional observations from a re-analysis of the deposited data

How the results depend on the processing

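Under 13 kinds of alternative the 10 genes gave 624 log2 fold changes, of which 604 kept their direction and their side of the threshold, 15 were no longer called, 5 were newly called and 0 changed direction. The lost calls are those of Fgf1 between Fb-Epn and Fb-Par (adjusted p from 4.43e-04 to 0.0357 over all alternatives) and of Fgf9 between Fb-Par and Fb-Skn (0.00367 to 0.0269), and the new ones are those of Fgf2 between Fb-Epn and Fb-Par (0.00500 to 0.0578). The number of DE genes among the 10 between Fb-Epn and Fb-Skn was 2 with limma on log2(FPKM + 1), a scale that understates the change of low genes. Between Fb-Epn and Fb-Par it was 1 with limma on log2(TPM + 1), 1 with limma on log2(FPKM + 1) and 1 with a minimum of 10 counts in every library, and between Fb-Par and Fb-Skn it was 1 with that minimum, which removes Fgf5 and Fgf9. When single libraries were left out, 8, 8 to 10 and 7 to 8 of the genes were called in the 3 comparisons, and 5 to 6, 1 to 3 and 2 were DE genes. Of the pathway genes, 28 to 32, 28 to 34 and 31 to 35 were then called. FPKM in place of TPM gave ratios of Fgf7 to Fgf10 of 18.8, 5.25 and 1.61. With the replicate number as a block, 8, 9 and 7 of the genes were called, 6, 2 and 2 were DE genes, and Fgf9 between Fb-Par and Fb-Skn had an adjusted p of 0.0104. Correlations of deviations from the type means were -0.080 to 0.020 in 9 pairs of equal number and -0.045 to 0.089 in 18 others. With 3 libraries per type, they cannot show whether samples of Fb-Epn and Fb-Par shared an animal. Low counts limit the precision for Fgf9, Fgf12, Fgf16, Fgf18 and Fgf22 among the genes named.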
